A study of Mus musculus with 3 samples.

Results

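Broad peaks of the zinc finger transcription factor Sp9 in the neonatal mouse olfactory bulb are the regions of at least 2000 bp in the authors' list of shared Sp9 peaks. A peak was kept when it lay on an assembled chromosome, did not carry the name of the ribosomal RNA genes Rn45s or Rn4.5s, and was not in a run of 5 or more peaks with gaps under 10 kb. These conditions left 18849 eligible peaks of the 19979 in the list, and 660 of them, or 3.50%, were broad. The other 18189 eligible peaks are called narrower peaks. The list came from 2 immunoprecipitation libraries made with a homemade Sp9 antibody, with 1 input library made without antibody, all from olfactory bulbs of CD1 mice, an outbred stock, on postnatal days 0 to 2, with no transgene or treatment named in the labels. Chromatin was fixed with 1% formaldehyde for 10 min and sheared to fragments of 200 to 1000 bp, so a peak of 2000 bp is wider than the longest fragment aimed at. Every peak has 1 interval, 1 score and 1 gene name, with no value per library. There is therefore no replicate error for any peak, and the depth of the libraries is unknown.

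Sp9 and the related factor Sp8 carry C-terminal zinc fingers of the Sp family, which bind GC boxes and related GC-rich letters, many of them in promoters rich in CpG dinucleotides. Both factors act in the immature interneurons that migrate into the olfactory bulb. In immunoprecipitation of a transcription factor, a wide peak can arise where fragments pile up over a long stretch, either around several neighbouring contacts or over an extended open region. The list does not place a peak in a promoter, exon or intron, and a peak is said to be linked with the gene it names.

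Promoters of 6 linked genes are shown first, because the Sp family is known for the GC box and because these genes lead the groups described next. They are Sp9 itself, the genes with the widest peak in the lists of zinc finger, forkhead, Sox and homeobox factors used here (Tshz3, Foxl2, Sox12 and Tlx3), and Smgc, whose broad peak shared the highest score among broad peaks. Each line gives the 250 bases before the RefSeq start, from the RefSeq table of build GRCm38.p6, which is not the build of the peaks. Capitals mark the GC box GGGCGG or its reverse complement CCGCCC, searched on both strands with overlapping matches counted separately.
Sp9, chr2:73271676-73271925, strand +: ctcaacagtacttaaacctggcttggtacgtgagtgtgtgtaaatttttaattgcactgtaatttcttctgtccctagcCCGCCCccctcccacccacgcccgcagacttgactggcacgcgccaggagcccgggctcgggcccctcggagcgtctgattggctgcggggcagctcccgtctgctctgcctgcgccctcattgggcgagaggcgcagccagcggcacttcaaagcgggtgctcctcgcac
Tshz3, chr7:36697868-36698117, strand +: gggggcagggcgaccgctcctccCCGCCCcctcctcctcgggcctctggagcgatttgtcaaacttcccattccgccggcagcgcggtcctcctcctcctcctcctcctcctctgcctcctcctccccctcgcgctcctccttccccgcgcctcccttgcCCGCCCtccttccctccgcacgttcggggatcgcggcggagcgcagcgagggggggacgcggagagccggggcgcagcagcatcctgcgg
Foxl2, chr9:98955357-98955606, strand +: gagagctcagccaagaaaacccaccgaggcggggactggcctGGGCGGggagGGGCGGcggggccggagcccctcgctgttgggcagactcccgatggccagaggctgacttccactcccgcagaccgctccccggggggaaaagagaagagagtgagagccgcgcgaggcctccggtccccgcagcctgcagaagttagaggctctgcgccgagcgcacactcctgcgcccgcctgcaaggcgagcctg
Sox12, chr2:152398047-152398296, strand -: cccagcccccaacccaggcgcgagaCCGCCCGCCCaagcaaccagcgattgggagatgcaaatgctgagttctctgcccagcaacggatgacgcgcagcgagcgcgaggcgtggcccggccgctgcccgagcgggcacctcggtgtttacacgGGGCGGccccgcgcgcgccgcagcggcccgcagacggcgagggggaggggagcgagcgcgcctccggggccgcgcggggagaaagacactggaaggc
Tlx3, chr11:33203589-33203838, strand -: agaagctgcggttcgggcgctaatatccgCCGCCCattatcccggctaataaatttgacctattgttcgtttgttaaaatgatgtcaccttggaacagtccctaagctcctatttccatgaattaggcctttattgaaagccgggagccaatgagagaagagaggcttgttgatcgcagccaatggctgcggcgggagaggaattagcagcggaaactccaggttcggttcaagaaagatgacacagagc
Smgc, chr15:91838078-91838327, strand +: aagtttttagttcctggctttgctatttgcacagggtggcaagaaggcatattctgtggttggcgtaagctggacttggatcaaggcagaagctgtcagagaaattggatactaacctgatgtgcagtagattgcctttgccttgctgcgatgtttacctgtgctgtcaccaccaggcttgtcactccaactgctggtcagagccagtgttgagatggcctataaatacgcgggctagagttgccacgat

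The box occurred 3 times before Sox12, where 2 of the matches overlap, 2 times before Tshz3 and Foxl2, and 1 time before Sp9 and Tlx3. It did not occur in the Smgc window, and whether the linked peak, with its score of 3100, lies at this promoter is not known. Among all 32851 promoters of the table, 32.7% held at least 1 GC box in the same window and 8.47% held 3 or more. Base content differed as well, with 74.4% G and C before Sox12, 74.0% before Tshz3, 62.4% before Sp9, and 48.8% before both Tlx3 and Smgc. A match describes these letters and does not place Sp9 there. A comparison of promoter composition over all linked genes was void, because the table held a promoter for 459 of the 588 coding genes with a broad peak, or 78.1%, under the minimum of 80%.

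Most broad peaks lay close to the lower limit of width. Their median width was 2301.5 bp, with quartiles of 2115.75 and 2618.5 bp, while narrower peaks had a median of 972 bp and quartiles of 778 and 1223 bp. Of the 660 broad peaks, 248 were under 2200 bp, 215 reached 2500 bp, 85 reached 3000 bp, 17 reached 4000 bp and 12 reached 5000 bp. Together they made up 8.22% of the length of the eligible peaks. The values just inside the limit were 2000 bp for Slc35e4 and Tgfbr1, 2001 bp for Dmrta2, and 2002 bp for Zfp579 and Mapk15. Those just outside were 1999 bp for Trhde, 1998 bp for Sema6c, Smad3 and Cacna1b, and 1997 bp for Shroom3. The scores on either side of the limit overlapped, from 434.95 to 845.91 inside and from 510.43 to 975.14 outside.

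Width and the deposited score went together, and both come from the same peak calls. Broad peaks had a median score of 744.78 with quartiles of 567.83 and 949.98, while narrower peaks had a median of 204.74 with quartiles of 126.2 and 336.2. Across the 18849 eligible peaks the Spearman correlation of width and score was 0.745, and within the 660 broad peaks it was 0.365. These points share their libraries, so the correlations only describe the list. Of the peaks scoring 1000 or more, 138 of 189 (73.0%) were broad, as were 402 of 2090 (19.2%) from 500 to under 1000. Below the median score of the list, 210.06, only 6 of 9317 were broad.

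**Figure D1:**
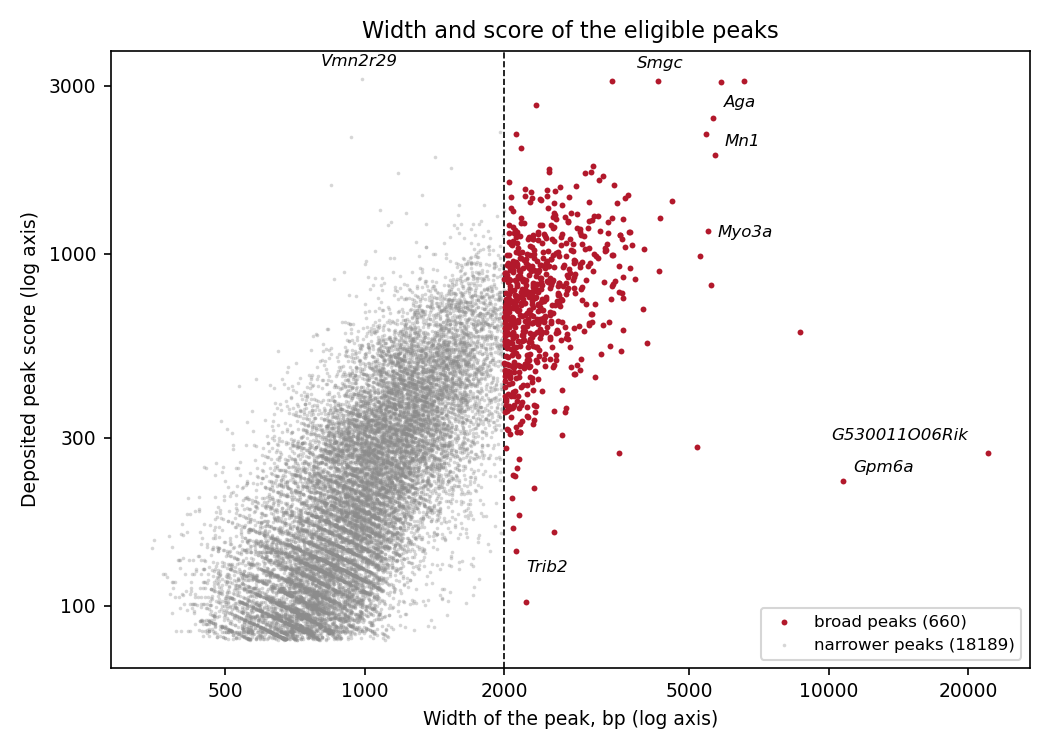
Width in bp (horizontal, log axis) against the deposited peak score (vertical, log axis) for each eligible peak, with 660 broad peaks in red, 18189 narrower peaks in grey and the limit of 2000 bp as a dashed line. Scores climb with width over most of the list, while G530011O06Rik (22030 bp, score 271.87) and Gpm6a (10713 bp, score 226.63) sit far to the right at low scores, and Vmn2r29 (987 bp, score 3139.09) sits high among the narrower peaks.

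The 15 widest peaks named mostly genes outside the transcription factor lists. A peak named for the long non-coding RNA gene G530011O06Rik was the widest, with 22030 bp on chromosome X from 166407851 to 166429881 (mm9) and a score of only 271.87. Directly beside it lay 2 more broad peaks of that name, of 6579 bp with a score of 3100 and of 8685 bp with a score of 598.36. The gap between the widest and the next was 147 bp, and the remaining broad peak of that name, 2222 bp wide, had the lowest score of all broad peaks, 102.3. Gpm6a, which encodes a neuronal membrane glycoprotein, came next with 10713 bp on chromosome 8 from 56198375 to 56209088 and a score of 226.63.

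The others of the 15 widest, Gm7120 excepted, scored above the broad median of 744.78. Pld4, a member of the phospholipase D family, had 5849 bp with a score of 3075.93, and another broad peak of 3406 bp with a score of 3100 began 43 bp further on. Mn1, a transcriptional co-regulator, had 5673 bp (1909.52), and Aga, a lysosomal enzyme gene, had 5632 bp (2436.70). Myo3a, a myosin gene, followed with 5482 bp (1161.56) and the gene listed as 9130204L05Rik with 5434 bp (2193.32). Zfp423, a zinc finger factor of neural development, had 5283 bp on chromosome 8 from 90481711 to 90486994 with a score of 984.19. Filip1, whose protein binds filamin, had 4590 bp (1413.68), Tlx3 4320 bp (1260.61) and the imprinted G protein gene Gnas 4311 bp (895.58). Vmn1r238, a vomeronasal receptor gene, had 5573 bp (816.37) on chromosome 18 from 3115188, and Gm7120 had 5189 bp (282.4). The Gm7120 peak was the last listed on chromosome 13, and a peak named G530011O06Rik was the last on chromosome X. Whether repeated sequence adds to the width of such peaks was not tested.

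The broad peaks with the highest scores were partly the same. The 3 at exactly 3100 were named G530011O06Rik, Pld4 and Smgc, a submandibular gland protein gene, whose peak was 4281 bp wide on chromosome 15 from 91736781 to 91741062. The same score of 3100 stood on wide peaks that the rule left out. These were named Mir6546 and the ribosomal RNA genes Rn45s, Rn4.5s and Gm25018, so the score does not rank the tied peaks. Among all eligible peaks only the narrower peak of Vmn2r29 scored higher, with 3139.09. After Pld4 (3075.93) came Pde1c, a phosphodiesterase gene, with 2651.95 over 2342 bp, Aga, 9130204L05Rik, Cttnbp2nl with 2182.06 over 2115 bp, Ccdc50 with 1992.93 over 2172 bp, and Mn1. At the other end, after G530011O06Rik, stood Trib2, a pseudokinase gene (142.59), Zfp825 (161.63), the splicing factor gene Hnrnph1 (166.45) and the condensin gene Smc4 (181.11), all between 2088 and 2555 bp wide. Score per kb ran from 12.3 to 1132 in broad peaks, with a median of 309, against a median of 213 in narrower peaks.

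A name usually occurred on 1 broad peak. The 660 peaks carried 643 names, of which 628 had 1 broad peak, 14 had 2 and G530011O06Rik had 4. Names with several included the chromatin remodelling gene Arid1a (2826 and 2015 bp), Ahdc1 (3589 and 3148 bp), the laminin gene Lama2 (3607 and 3540 bp, 260 bp apart), the transcription factor gene Ebf3 (2871 and 2540 bp), Skor1, a transcriptional corepressor (3412 and 2254 bp), and Gnas (4311 and 2086 bp). In Aga the broad peaks of 5632 and 2047 bp scored 2436.70 and 1593.14 and began far apart on chromosome 8, at 53388783 and 53921415. Of the 588 coding genes with a broad peak, 290 had no other eligible peak. In 285 of the other 298 (95.6%) a broad peak was the one with the highest score, width and score being linked throughout the list. Axin2, a feedback inhibitor of Wnt signalling, was among the exceptions, with 2241 bp at a score of 497.46 beside 1180 bp at 1696.89.

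The factor's own gene and that of its close relative both carried a broad peak. Sp9 had 2240 bp on chromosome 2 from 73110826 to 73113066 with a score of 637.13, and Sp8 had 2033 bp on chromosome 12 from 120086666 to 120088699 with a score of 589.41. In the Sp family, 8 of 9 genes had an eligible peak, and the other 6 had widest peaks of 691 bp (Sp1) to 1649 bp (Sp3). A higher score did not always go with a broad peak there. The highest scores of Sp4 (1116.63) and Sp5 (736.7) were both above that of Sp9, yet their widest peaks had 1525 and 1605 bp. With 2 eligible peaks each, the widest need not be the one with the highest score. Tshz1, a zinc finger factor of bulb interneurons, had 1507 bp and the prokineticin receptor gene Prokr2 1077 bp, so neither counted as broad. The Tshz1 peak ended at 84255799 on chromosome 18. A peak of 1907 bp named for another gene, Zadh2, with a score of 617.89, began close by at 84256459. Tshz3, the relative of Tshz1, had 3723 bp with a score of 1151.24 on chromosome 7 from 37480062 to 37483785.

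Gene classes were nearly alike on broad and narrower peaks. Coding genes were named on 600 of 660 broad peaks (90.9%, exact Clopper-Pearson interval at 95% from 88.5 to 93.0%), against 16357 of 18189 narrower ones (89.9%, 89.5 to 90.4%). Long non-coding RNA genes were named on 32 broad peaks (4.85%, 3.34 to 6.78%), against 6.33% of narrower ones (5.98 to 6.69%). MicroRNA genes were named on 16 broad peaks (2.42%), against 2.09% of narrower ones. Among them were Mir124a-3, a copy of a neuronal microRNA gene (2396 bp, score 730.99), Mir195b (2738 bp, 1241.04), Mir6991 (3030 bp, 922.09) and Mir17 (2052 bp, 562.91). The intervals cover counting error only and treat peaks as independent.

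The listed transcription factor genes were linked to broad peaks about 4 times as often as the other coding genes. The counts were 93 of 525 listed factor genes (17.7%, exact interval 14.5 to 21.3%) and 495 of 11202 other named coding genes (4.42%, 4.05 to 4.82%). These intervals cover counting error only, and the gene lists were chosen with earlier results of these data known. Over all 11727 coding genes with an eligible peak, 588 or 5.01% had a broad one, the background for every gene list given here. The other genes include factors outside the lists, such as Zfp423. Of 228 named genes with symbols that begin with Zfp and a number, many of them zinc finger factors, 9 had a broad peak (3.95%), close to that background. The median of the widest peak per gene was 1348 bp for listed factors, against 1081 bp for the other genes and 1090 bp over all. Counted as peaks, 95 of 660 broad ones (14.4%, 11.8 to 17.3%) named a listed factor, against 946 of 18189 narrower ones (5.20%, 4.88 to 5.53%).

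Sox and forkhead factors had the highest shares. Of 15 named Sox genes, 6 had a broad peak (40%, exact interval 16.3 to 67.7%, median widest peak 1741 bp). They were Sox12 (3213 bp, score 1160.57), Sox3 (2896 bp, 622.97), Sox11 (2440 bp, 923.06), Sox17 (2269 bp, 571.88), Sox2 (2194 bp, 583.79) and Sox4 (2062 bp, 640.43). Sox2 and Sox3 maintain neural progenitors, and Sox4, Sox11 and Sox12 form the group of factors active in immature neurons, while Sox17 is known for endoderm and blood vessels. Of 38 forkhead genes, 15 had one (39.5%, 24.04 to 56.6%, median 1664.5 bp). Foxl2, a factor of the ovary, had 2909 bp (914.73) and Foxo1, an effector of insulin signalling, 2832 bp (941.36). Others were Foxc1, Foxq1, Foxf1, Foxd2, Foxd3, Foxd1, Foxo6, Foxc2, Foxe1, Foxf2, Foxb1 and Foxn2, down to 2158 bp. With a limit of 3000 bp in place of 2000 bp, 0 of the 38 forkhead genes and 1 of the 15 Sox genes (6.67%) had a broad peak.

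Among the factor lists, zinc finger factors of development came next, with 31 of 114 genes (27.2%, exact interval 19.3 to 36.3%, median 1523 bp). The widest after Tshz3 were Egr3, an activity-induced factor, with 3600 bp (859.6) and Insm1, a factor of neuronal progenitors, with 3121 bp (1276.92). Families within this list, chosen after their values had been seen, were uneven. Insm1 and Insm2 (2276 bp) both had a broad peak, as did Zic1, Zic2 and Zic5 of 5 Zic genes, Egr3 and Egr4 (2978 bp, 1698.23) of 4 Egr genes, and Prdm13, Prdm12, Prdm6 and Prdm8 of 11 named Prdm genes. By contrast, only Klf13 (3047 bp, 1401.2) did so among 14 named Klf genes, whose median was 1701 bp. Bcl11b, a factor of forebrain neurons (2359 bp, 1090.42), Casz1 (2535 bp, 716.87), the insulator protein gene Ctcf (2360 bp, 888.74) and Yy1 (3023 bp, 1181.57) were also among the 31.

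The AP-1, Creb and Cebp group had 7 of 28 genes with a broad peak (25%, exact interval 10.7 to 44.9%, median 1416.5 bp). They included Mafa (2980 bp, 1031.37), Cebpa (2967 bp, 1123.82), Jun (2913 bp, 935.27), Cebpb (2909 bp, 1154.37), Fosl2 (2715 bp, 576.09) and Jund (2490 bp, 1734.71). Mafa encodes a Maf factor, Cebpa and Cebpb regulators of differentiation, and Jun, Jund and Fosl2 subunits of AP-1.

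Homeobox factors stood lower, with 18 of 155 genes (11.6%, exact interval 7.03 to 17.7%, median 1287 bp). Tlx3, a factor of sensory and hindbrain neurons, lay on chromosome 11 from 33100253 to 33104573 with 4320 bp. Pou3f1, a POU factor, had 3685 bp (1466.02) and Tlx2 3405 bp (811.8). Dlx2, which specifies forebrain GABAergic neurons, had 3287 bp with a score of 830.13, whereas the other 5 Dlx genes had widest peaks of 837 bp (Dlx4) to 1285 bp (Dlx1). None of 19 Hox genes with an eligible peak had a broad one, a count of 0 that allows a share of up to 3 in 19, and their widest had 1526 bp. Peaks of 2099 bp for Hoxd9 and 2029 bp for Hoxd8 lay in dense runs and were left out.

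The remaining factor lists lay closer to the background of 5.01%, and their intervals included it. Nuclear receptors had 3 of 31 (9.68%, exact interval 2.04 to 25.8%), namely Nr2f2, which is COUP-TFII (2839 bp, 455.43), Nr5a1 (2825 bp, 454.51) and Nr2f6 (2436 bp, 642.84). Basic helix-loop-helix and Id genes had 7 of 75 (9.33%, 3.84 to 18.3%), led by Ascl2 (2345 bp, 893.54), Tfeb, a regulator of lysosomal genes (2259 bp, 477.83) and Twist1 (2257 bp, 499.49). The list of Nfi, Ebf, Ets, Tbx, Runx, Mef2 and Tcf/Lef factors had 6 of 69 (8.70%, 3.26 to 18.0%), led by Ebf3 (2871 bp, 1179.44), Elf2 (2527 bp, 1206.47) and E2f3 (2469 bp, 618.94).

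**Figure D2:**
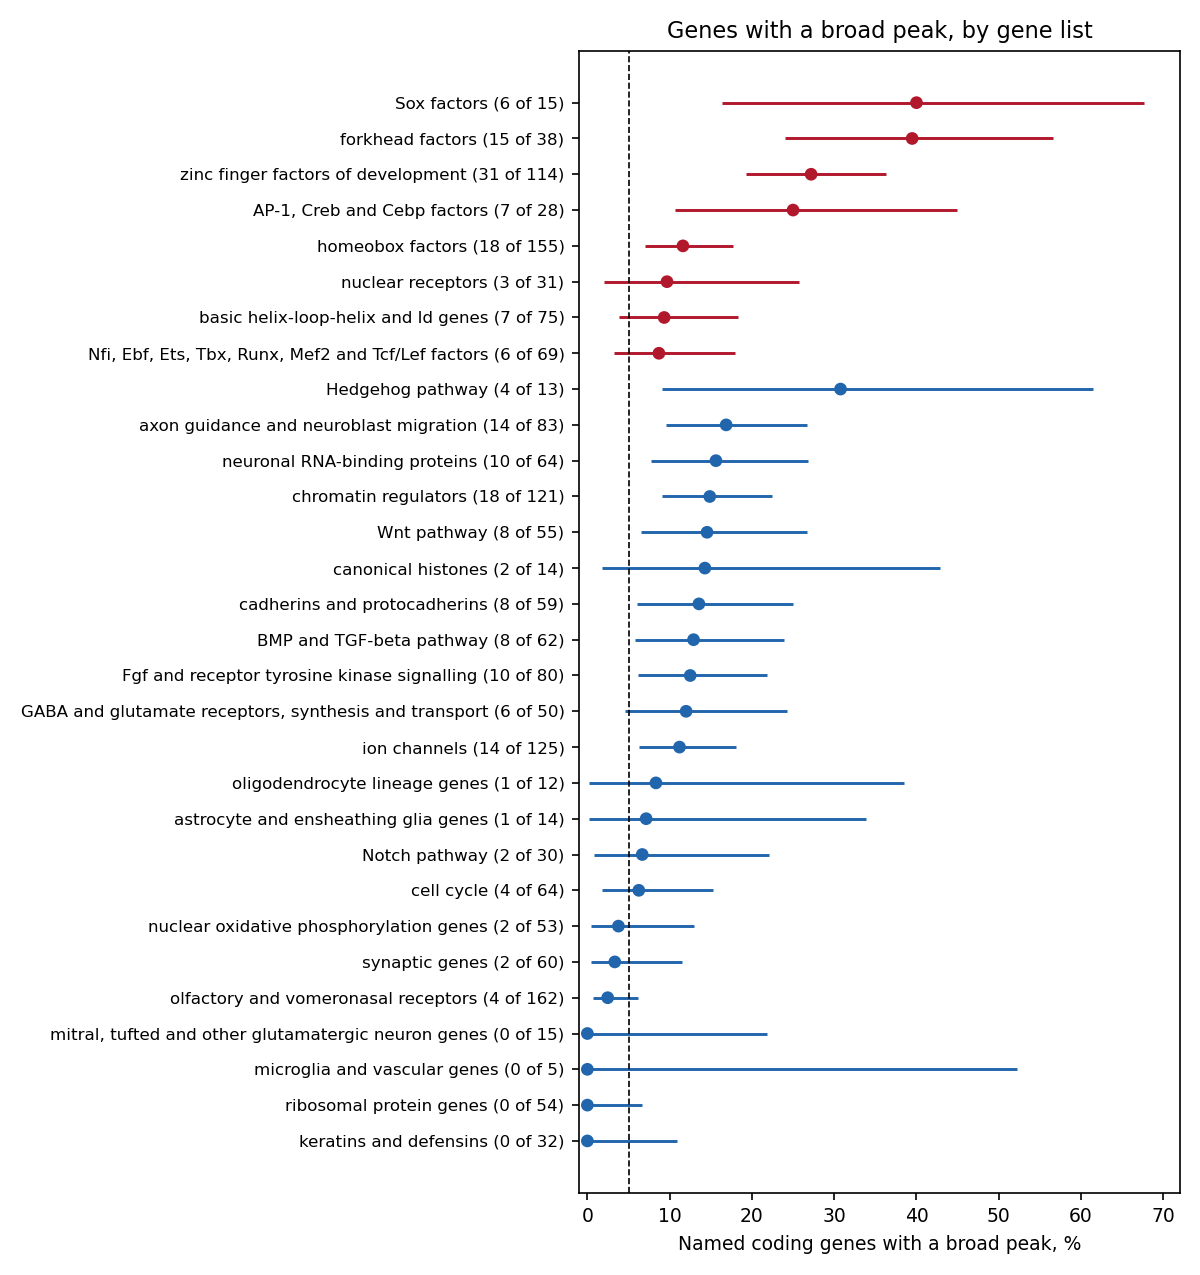
Share of named coding genes with a broad peak (horizontal, %) for 30 gene lists, with exact 95% intervals as lines, transcription factor lists in red above other lists in blue, and the background of 5.01% as a dashed line. Sox (6 of 15) and forkhead genes (15 of 38) lie farthest to the right, and ribosomal protein genes (0 of 54) lie at 0.

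**Figure D3:**
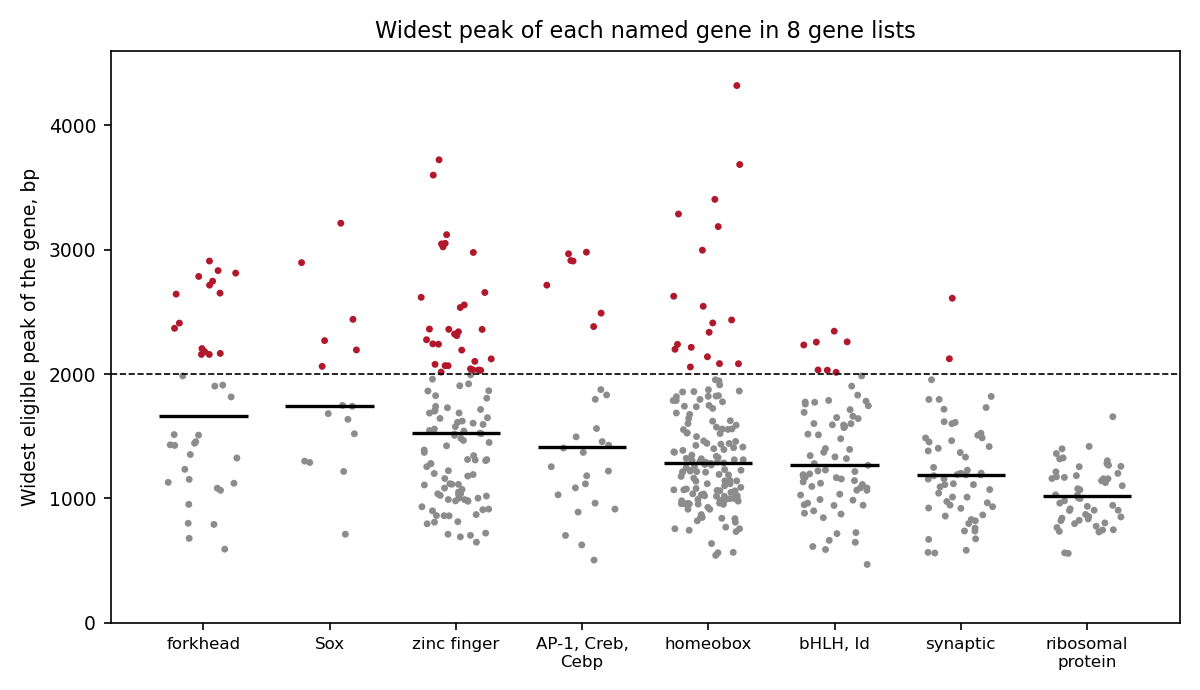
Width of the widest eligible peak of each named gene in 8 gene lists (vertical, bp), with a black line at the median of the list, the limit of 2000 bp as a dashed line and genes with a broad peak in red. Forkhead, Sox and zinc finger medians (1664.5, 1741 and 1523 bp) lie above the ribosomal protein median of 1016 bp, and no ribosomal protein gene reaches the limit.

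The link with transcription factor genes was also seen among peaks in the same range of score. From the list median of 210.06 to under 500, 17 of 114 broad peaks (14.9%, exact interval 8.93 to 22.8%) named a listed factor, against 360 of 7139 narrower ones (5.04%, 4.55 to 5.58%). From 500 to under 1000 the counts were 51 of 402 broad peaks (12.7%, 9.59 to 16.3%) and 98 of 1688 narrower ones (5.81%, 4.74 to 7.03%). At 1000 or more they were 27 of 138 broad peaks (19.6%, 13.3 to 27.2%) and 2 of 51 narrower ones (3.92%, 0.478 to 13.5%). The intervals of the first 2 ranges did not overlap, and those of the last did. Scores still vary within each range. Counted as genes with only peaks scoring 500 or more kept, the factor share was 2.12 times that of other genes, against 4.01 for all eligible peaks.

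**Figure D4:**
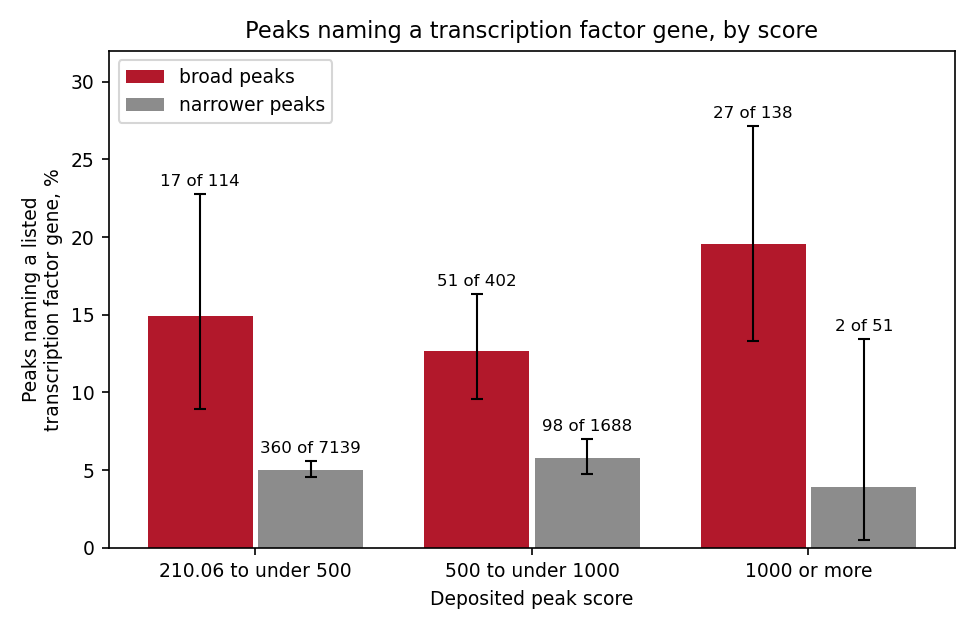
Share of peaks that name a listed transcription factor gene (vertical, %) for broad peaks in red and narrower peaks in grey, in 3 ranges of the deposited score (horizontal), with exact 95% intervals. Broad peaks lie at 12.7 to 19.6% and narrower ones at 3.92 to 5.81%; the range under 210.06 held only 6 broad peaks, none of which named a listed factor, and is not drawn.

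The number of peaks per gene differed too, since listed factor genes had 1.98 eligible peaks on average and other named coding genes 1.42. Among genes with exactly 1 eligible peak, where this number is equal, 33 of 253 factor genes had a broad one (13.04%, exact interval 9.15 to 17.8%), against 257 of 8306 other genes (3.09%, 2.73 to 3.49%). With 2 peaks the shares were 22.3% and 6.49%, and with 3 peaks 22.5% and 8.44%. At 4 peaks the order turned, with 3 of 22 factor genes (13.6%) and 35 of 214 other genes (16.4%), within wide intervals.

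**Figure D5:**
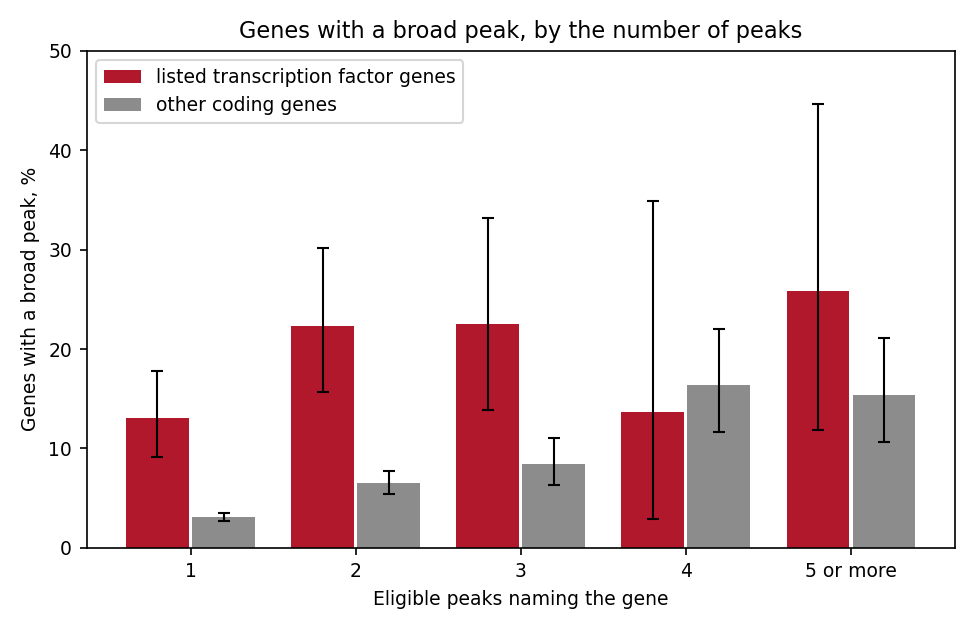
Share of named coding genes with a broad peak (vertical, %) by the number of eligible peaks that name the gene (horizontal), for listed transcription factor genes in red and other coding genes in grey, with exact 95% intervals. The red bars stand higher at 1, 2, 3 and 5 or more peaks and lower at 4 peaks, where 3 of 22 factor genes had a broad peak.

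Some lists of other genes had shares as high as those of factor lists. The Hedgehog share lay above the 27.2% of zinc finger factors, and the Wnt share above the 11.6% of homeobox factors. The axon guidance, RNA-binding and chromatin lists, described below, also lay above homeobox factors. In the Hedgehog pathway 4 of 13 genes had a broad peak (30.8%, exact interval 9.09 to 61.4%). They covered the receptor gene Ptch1 (3776 bp, 1056.47), the co-receptor gene Gas1 (2409 bp, 1204.98), the ligand gene Ihh (2133 bp, 807.94) and the effector gene Gli3 (2030 bp, 736.28). Gli3 is also counted among the zinc finger factors. In the Wnt pathway 8 of 55 did (14.5%, 6.495 to 26.7%), and 5 of these 8 were Frizzled receptors. Fzd8 had 3110 bp (890.22), Fzd7 2623 bp (982.56), Fzd1 2511 bp (853.59), Fzd2 2127 bp (311.31) and Fzd5 2087 bp (706.9), while Fzd9 had 1883 bp, Fzd3 1623 bp, Fzd4 1612 bp and Fzd6 984 bp. With coding genes grouped by the letters before the first digit of the symbol, a grouping added later that does not always join relatives, the Fzd share of 5 of 9 was the highest of 182 groups with at least 8 named genes. Of these groups, 96 had no gene with a broad peak. At the share of 5.01% over all coding genes, small groups would often have none.

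BMP and TGF-beta genes had 8 of 62 (12.9%, exact interval 5.74 to 23.9%), led by the inhibitory Smad gene Smad6 (3631 bp, 1043.92), the ligand gene Gdf1 (3329 bp, 1065.9) and the repressor gene Skil (2361 bp, 440.06). Fgf and receptor tyrosine kinase genes had 10 of 80 (12.5%, 6.16 to 21.8%), led by the ligand gene Pdgfa (3832 bp, 848.43), the adaptor gene Irs2 (3583 bp, 1103.83) and the receptor gene Igf1r (3315 bp, 1022.04). The Notch pathway had 2 of 30 (6.67%, 0.818 to 22.1%), its nuclear mediator Rbpj (2642 bp, 711) and the ligand gene Jag2 (2030 bp, 716.82).

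Axon guidance and neuroblast migration genes had 14 of 83 with a broad peak (16.9%, exact interval 9.54 to 26.7%, median widest peak 1456 bp). Efna5, an ephrin ligand gene, had 3398 bp (743.8), Ntn1, the netrin 1 gene, 3047 bp (1241.88) and Lrp8, a reelin receptor gene, 2669 bp (918.38). Efnb2, Ephb2, Plxnd1, Ntng1, Unc5a, Plxna1, Plxnc1, Cdk5r2, Epha3, Dclk2 and Ncam1 completed the 14, so that ligands, receptors and intracellular members were all present.

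Regulators of chromatin and RNA lay in the same range. Chromatin regulators had 18 of 121 (14.9%, exact interval 9.06 to 22.5%), led by the high mobility group gene Hmga1 (3344 bp, 1227.74) and by Arid1b (3293 bp, 1035.97) and Arid1a (2826 bp, 961.67), subunits of the BAF remodelling complex. RNA-binding proteins had 10 of 64 (15.6%, 7.76 to 26.9%), led by the cytoplasmic polyadenylation genes Cpeb2 (3101 bp, 1774.08) and Cpeb1 (2669 bp, 807.96) and by Hnrnpdl (2402 bp, 794.41). Cell cycle genes had 4 of 64 (6.25%, 1.73 to 15.2%), with the inhibitor gene Cdkn1c (2666 bp, 1376.16) first, followed by E2f3 and Gadd45g (2341 bp, 542.83). Canonical histones had 2 of 14 (14.3%, 1.78 to 42.8%), the genes listed as Hist2h3c1 (2481 bp, 1014.52) and H1fx (2098 bp, 492.53). Copies of histone genes are nearly identical, so reads may be split among them.

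Among genes of neuronal function the picture was mixed. Ion channel genes had 14 of 125 (11.2%, exact interval 6.26 to 18.1%), among them the potassium channel genes Kcnc4 (2937 bp, 1066.3) and Kcnab1 (2495 bp, 1702.02). Genes of GABA and glutamate receptors, synthesis and transport had 6 of 50 (12%, 4.53 to 24.3%), led by the glutamate receptor genes Grin2a (3141 bp, 444.89), Grik3 (2686 bp, 927.45) and Grid1 (2318 bp, 337.26). Cadherins and protocadherins had 8 of 59 (13.6%, 6.04 to 24.98%), led by Pcdh7 (3569 bp, 528.69), Fat4 (3270 bp, 628.47) and Cdh2, the N-cadherin gene (3141 bp, 719.97). Synaptic genes had 2 of 60 (3.33%, 0.406 to 11.5%), the active zone gene Rims2 (2610 bp, 765.21) and the scaffold gene Dlgap2 (2123 bp, 752.16), although the median of their highest scores, 337, lay above the 273 over all coding genes.

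Lists of ubiquitous function and of other cells could not be set apart from the background of 5.01%, which every interval or limit in this group included. Ribosomal protein genes had 0 of 54, which allows a share of up to 5.56%, a limit still above the background of 5.01%. Their widest was that of Rpl10a with 1657 bp. Nuclear oxidative phosphorylation genes had 2 of 53 (3.77%, exact interval 0.460 to 12.98%), Ndufa4 (2506 bp, 682.43) and Cox7c (2213 bp, 1462.28). Olfactory and vomeronasal receptor genes had 4 of 162 (2.47%, 0.677 to 6.20%), all of them vomeronasal, with Vmn1r2 (3382 bp, 545.82) and Vmn1r48 (2908 bp, 1173.76) after Vmn1r238. Keratins and defensins had 0 of 32, which allows up to 9.38%.

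Cell type genes were too few to set apart. Mitral, tufted and other glutamatergic neuron genes had 0 of 15, which allows up to 20%, and microglial and vascular genes had 0 of 5, which allows up to 60%. Astrocyte and ensheathing glia genes had 1 of 14 (7.14%, exact interval 0.181 to 33.9%), the receptor gene Fgfr3 (2556 bp, 915.89). The oligodendrocyte lineage had 1 of 12 (8.33%, 0.211 to 38.5%), Olig1 (2033 bp, 552.32), while Olig2 reached 1642 bp. Whole bulbs hold all of these cells, and the list does not say in which of them a region was occupied.

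Broad peaks were spread over all autosomes and chromosome X. Over all eligible peaks, 3.50% were broad. Among these chromosomes, 17 had the highest share, 45 of 830 (5.42%, exact interval 3.98 to 7.19%), and 1 the lowest, 24 of 1146 (2.09%, 1.35 to 3.10%). Chromosome X had 18 of 777 (2.32%, 1.38 to 3.64%), an interval that included 3.50%. The median score of its eligible peaks was 176, the lowest among these chromosomes. On chromosome 1 that median, again over all eligible peaks, was 226. A relation between the scores of a chromosome and its share of broad peaks was not tested. No other peak lay within 10 kb of 486 broad peaks (73.6%), against 75.9% of narrower ones, and the median gap to the nearest peak was 36.4 kb for broad and 32.4 kb for narrower peaks. Another peak within 200 bp was found for 27 broad peaks (4.09%), against 546 of the 18189 narrower ones. The broad ones included those of Sox2, Six2, Cux1, Fzd5 and Gadd45g, and also those of G530011O06Rik, Pld4, Ahdc1, Nup35, Ckb and Vgf.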

How the data were processed

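Sp9 immunoprecipitation was done in 2 libraries, with 1 input library, read as paired ends of 150 bases. Per the submitters' processing notes, the tools were Bowtie2 2.2.4 and MACS 1.4.2 and the build was mm9; their roles and settings are not stated there. Each deposited interval has 1 score from the authors, tied to no library, which served here to rank, describe and filter peaks; how it was computed, and when a peak counted as shared, no source used here states. Whether the immunoprecipitations came from separate animals is not stated. Width is the deposited end minus start, and coordinates are printed as deposited, since it is not stated whether starts count from 0 or 1. Gene names were looked up in RefSeq's table for GRCm38.p6 by symbol, then by a synonym of only 1 gene; 653 of 660 broad peaks matched, 32 of them by synonym. Shares have exact Clopper-Pearson intervals at 95%, and a count of 0 is given with the limit of 3 counts. No test between groups was made, because width chose the members and the score comes from the same calls. Members, gene lists and limits were chosen with earlier results of these data known. Genes named are Sp8, Sp9, Tshz1, Prokr2, the 15 widest peaks, the 10 highest and 5 lowest scores, peaks at the limit, names with most broad peaks, and up to 3 genes per list; any other was picked with its values in view. A few genes that the rule names are not reported here. The selection of broad peaks was tested on simulated data. Python 3.11.15, pandas 2.3.3 and scipy 1.17.1 were used.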

Additional observations from a re-analysis of the deposited data

How the results depend on the processing

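The link of broad peaks with listed transcription factor genes kept its direction under all 10 alternatives, at 2.12 to 5.23 times the share of other genes, against 4.01 as reported. The shares moved with the limit of width, by construction. At 1500, 2500 and 3000 bp there were 2486, 215 and 85 broad peaks, linked to 41.9%, 7.24% and 2.29% of listed factors, against 17.3%, 1.38% and 0.571% of other genes. With scores at or above the list median the shares were 22.8% and 6.90%, and with genes named on 1 eligible peak 13.04% and 3.09%. Chosen with the data in view were scores of 500 or more (47.0% and 22.2%) and merging of peaks with gaps under 200 bp (21.9% and 5.29%). Other run definitions gave 606 to 708 broad peaks and factor shares of 17.6 to 18.0%. The share of broad peaks naming a coding gene, computed under 7 of these alternatives, lay between 89.0% and 92.9%. At 3000 bp no forkhead gene had a broad peak (0%), and 6.67% of Sox genes had one. Promoter composition was not compared, for the reason given with the promoters. Leaving out a library was not run and no paired analysis was possible because scores and intervals are not split by library. Without the depth, it cannot be said how many of the narrower peaks would be broad in deeper libraries.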

Other observations

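Peaks of at least 2000 bp that the rule left out numbered 65, of which 62 lay in dense runs, 2 on random sequence and 1 carried the name Rn45s. The widest, 19843 bp on chromosome 8 with a score of 1516.84, was named Rhou and lay in a run of 11 peaks with those named for the ribosomal RNA gene Gm25018. Others were named Ttr (5578 bp, score 3019.84), Hrnr (4846 bp, 2014.51), Plec (4171 and 3719 bp) and Midn (3865 bp). Listed transcription factors that had a wide peak only among those left out were Hic1, Hoxd8, Hoxd9, Junb, Klf16, Neurod2, Pitx1 and Zbtb7a, 8 genes in all.

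Narrower peaks of high score form the opposite corner of the list. Of the 51 that scored 1000 or more, the highest were named Vmn2r29 (987 bp, 3139.09), 4930467E23Rik (1954 bp, 2214.28), Txndc11 (934 bp, 2147.65), 4933406J10Rik (1420 bp, 1880.82), Spanxn4 (1534 bp, 1750.5), Axin2 (1180 bp, 1696.89) and the Mediator kinase gene Cdk8 (846 bp, 1562.33). Spanxn4 also had a broad peak, of 2448 bp with a score of 666.38. Listed transcription factor genes were named on 2 of the 51.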
